A study of Mus musculus with 8 samples.

Results

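Disease-associated microglia genes were followed in the host myeloid cells of tumours grown in mouse brain, with the same genes in liver and subcutaneous tumours beside them. The list held 9 genes: Trem2, Tyrobp, Cst7, Lpl, Spp1, Gpnmb, Cd9, Clec7a and Axl. A search by symbol found 8 of them among the 22056 features of the expression matrices, and Clec7a is not analysed here. A cell counted as host myeloid when eGFP and Mycl, which mark the tumour line, made up under 0.2% of its unique molecular identifiers (UMIs, the counted RNA molecules) and it had at least 1 Tyrobp UMI. Host myeloid cells were then split by the sum of 4 genes of resting microglia, P2ry12, Tmem119, Gpr34 and Cx3cr1. Cells with at least 3 UMIs over these genes form the high class and the others the low class. The rule found 1317 host myeloid cells in all 8 libraries, and 1117 of them were in the 2 brain libraries.

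The tumours were allografts of N2N1G, a mouse small cell lung cancer line, with 1000000 cells transplanted per allograft and tumours taken after 3 weeks. Brain tumours (2 libraries) and subcutaneous flank tumours (3 libraries) were seeded by direct injection, and liver tumours (3 libraries) through the tail vein. All groups carried the same line, and the labels give no strain, age or sex of the mice and no further treatment. Healthy single cells were sorted from each tumour and sequenced with the 10x 3' method. The short sample tags end in gfp, but the labels do not describe the sort gate, so the shares of host cells below describe the libraries and not the tissues. The N2N1G cells are 1 line, so the comparisons describe the hosts of that line only. Libraries held between 27140735 and 63049542 UMIs.

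Microglia, the resident macrophages of the brain, leave their resting state around plaques, dying cells and damaged myelin and turn on a shared set of genes. The receptor Trem2 binds lipids and lipoproteins and signals through the adaptor Tyrobp (DAP12), and in mice that lack Trem2 much of this gene set is not induced. Cst7 (cystatin F) inhibits lysosomal proteases, Lpl (lipoprotein lipase) releases fatty acids from lipoproteins, and Spp1 (osteopontin) is a secreted ligand of integrins and CD44. Gpnmb is a transmembrane glycoprotein of lysosomes and the cell surface, Cd9 is a tetraspanin, and Axl is a receptor tyrosine kinase for Gas6 that takes part in the uptake of dying cells. Many macrophages outside the brain express several of these genes too.

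The 250 bases before the RefSeq start of transcription are printed for Trem2, Spp1 and Cd9, since only these members held one of the motifs searched. RefSeq promoter entries on GRCm38.p6 matched 6 of the 8 members (none for Tyrobp and Lpl). The motifs were a PU.1 motif (GAGGAAGT), an AP-1 motif (TGANTCA), a TFE E-box (TCACGTG) and an SP/KLF GC box (GGGCGGGG), each searched on both strands and marked in capitals. None of the 4 motifs was found in the windows of Cst7, Gpnmb and Axl.
Trem2, chr17:48346151-48346400, plus strand: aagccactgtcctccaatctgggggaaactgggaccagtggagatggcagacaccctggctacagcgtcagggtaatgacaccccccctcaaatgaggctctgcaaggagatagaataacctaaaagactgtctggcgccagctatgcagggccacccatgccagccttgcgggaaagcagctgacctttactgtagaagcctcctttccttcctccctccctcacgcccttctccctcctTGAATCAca
Spp1, chr5:104434861-104435110, plus strand: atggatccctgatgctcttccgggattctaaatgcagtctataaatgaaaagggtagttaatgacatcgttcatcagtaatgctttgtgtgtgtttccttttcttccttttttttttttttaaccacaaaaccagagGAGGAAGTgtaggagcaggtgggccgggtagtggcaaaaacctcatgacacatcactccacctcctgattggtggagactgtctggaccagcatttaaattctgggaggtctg
Cd9, chr6:125494761-125495010, minus strand: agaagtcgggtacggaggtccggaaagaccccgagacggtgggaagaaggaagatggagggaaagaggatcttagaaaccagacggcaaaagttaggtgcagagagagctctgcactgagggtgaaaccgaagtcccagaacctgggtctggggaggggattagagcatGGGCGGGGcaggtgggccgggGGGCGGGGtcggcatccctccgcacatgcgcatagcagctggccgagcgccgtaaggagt
GENCODE starts Cd9 further upstream than RefSeq, so the last bases of that window lie inside its GENCODE gene. The AP-1 letters lay at bases -9 to -3 of Trem2, and they read as the motif on both strands. The PU.1 letters lay at bases -113 to -106 in the first of 2 Spp1 entries, and the 2 GC boxes lay at -81 to -74 and -60 to -53 of Cd9. Of 32851 promoters of the same length, 6.75% held the AP-1 motif, 2.44% the PU.1 motif, 3.13% the TFE E-box and 16.1% the GC box, so these matches describe the letters and not binding.

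The brain libraries held most of the host myeloid cells but differed from each other. In brain replicate 1, 850 of 3376 cells (25.2%, exact 95% binomial interval 23.7% to 26.7%) were host myeloid, against 267 of 4411 (6.05%, 5.37% to 6.80%) in brain replicate 2. The high class held 480 of these 850 cells (56.5%, 53.1% to 59.8%) in replicate 1 and 111 of 267 (41.6%, 35.6% to 47.7%) in replicate 2. Liver replicates 1, 2 and 3 held 8, 51 and 11 host myeloid cells, of which 0, 1 and 0 were in the high class. Subcutaneous replicate 1 held 127, of which 4 were in the high class, and subcutaneous replicates 2 and 3 held 1 and 2. Intervals on shares and levels cover counting error only. No host myeloid barcode was host myeloid in a second library. Near the split, 43 cells of replicate 1 and 6 of replicate 2 had exactly 3 of the 4-gene UMIs, and 61 and 12 cells had 2. Trem2 stood at 499.3 and 253.8 CPM (UMIs of a gene per 1000000 UMIs of the summed cells) in cells with 1 or 2 of these UMIs and at 1261 and 637 CPM in cells with 3 or 4. Median depth was 4207.5 UMIs per cell in the high class and 4590 in the low class of brain replicate 1, and 3278 and 4867.5 in replicate 2.

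Markers of resting microglia were high in the high class, and the low class carried markers of several other cell types. All 15 other genes of resting microglia on the list, such as Olfml3, Slc2a5 and P2ry13, passed the edgeR test described below and were higher in the high class, with a summed level of 54749 and 65307 CPM against 7051 and 6283 CPM in the low class of replicates 1 and 2. The low class instead carried the 7 genes of MHC class II at 54767 and 61568 CPM against 7831 and 12353 CPM. It also carried 14 monocyte and border-macrophage genes at 4520 and 4451 CPM against 808 and 1192 CPM, and 7 dendritic cell genes at 573 and 800 CPM against 38.9 and 33.0 CPM. Neutrophil genes reached 802 CPM in the low class of replicate 1 and 174 CPM in replicate 2, against 148 and 174 CPM in the high class. These sums mix directions, since S100a9, S100a8 and G0s2 were lower in the high class (log2 -8.39, -6.13 and -5.54) and Csf3r was higher (2.12). S100a8 stood at 353 and 25.2 CPM in the low class of replicates 1 and 2, against 4.70 and 2.36 CPM (1 UMI) in the high class. Of 8 T and NK cell genes, 7 and 8 were at 0 in the low class. The high class is therefore called microglia-like, and the low class is named only by its rule. The part that these other cell types had in the differences below was not tested.

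Trem2, the lipid receptor, had the largest log2 difference between the classes of the 7 members tested. Its level was 2384 and 2312 CPM in the high class of brain replicates 1 and 2, and 279 and 122 CPM in the low class. The 2 high-class values lay close together and far above both low-class values. The difference was 11.2-fold (log2 3.48, SE 0.17, edgeR quasi-likelihood test on 4 sums with library as a term, adjusted p = 2.9e-76), with 8.53-fold in replicate 1 and 18.9-fold in replicate 2. A Trem2 UMI was found in 97.5% and 92.8% of high-class cells and in 47.3% and 28.8% of low-class cells. After thinning every cell to 2000 UMIs these shares were 96.9% and 91.6% against 28.2% and 13.7%. In tumour-gated cells (eGFP and Mycl at 0.2% of UMIs or more) the thinned shares were 3.84% and 0.322%, from cells with a median of 7971.5 and 8409 UMIs before thinning, and these are taken as the background. The Trem2 UMIs were spread over the cells: 468 of 480 high-class cells of replicate 1 held one, and the 5 highest cells held 4.75% of them. Trem2 lies on mouse chromosome 17 from 48346401 to 48354147 (GRCm38, GENCODE M21).

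Tyrobp, the signalling adaptor, chose the cells and is described without a test. It stood at 4349 and 3740 CPM in the high class and at 2507 and 2485 CPM in the low class. Both high-class values lay above both low-class values, a difference of 1.51-fold. Tyrobp lies on chromosome 7 from 30413760 to 30417585. Of the other genes of the Trem2 and Tyrobp pathway, the list counts Trem2 itself: 16 of 17 could be tested, 8 were higher and 2 lower in the high class, with a median log2 difference of 0.56. Among those with the smallest adjusted p were Blnk, an adaptor downstream of Syk (log2 2.72), the inhibitory receptor Cd33 (1.38) and the phosphatase Inpp5d (1.12). The 2 lower genes were Syk, the kinase that Tyrobp recruits (-1.12), and the lipoprotein Clu (-1.93), named here after their values were seen. Across the 8401 genes tested, 17.8% were higher and 19.0% lower in the high class, and their median log2 difference was 0.01.

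Cd9 was also higher in the high class. It stood at 1630 and 1367 CPM against 360 and 190 CPM, and the classes did not overlap. The difference was 5.19-fold (log2 2.37, SE 0.16, edgeR quasi-likelihood adjusted p = 2.4e-46). Of the 9 tetraspanins and partners tested, 7 were higher and none lower, among them Cd81 (log2 2.92), Cd37 (2.60) and Cd82 (1.39), while Cd151 (0.60) and Ptgfrn (0.81) did not pass. With 1 brain library left out, each class held 1 sum. That fit had no library term and took its spread from the other sites. It thus differs from the main fit by more than the missing library. Cd9 is not particular to myeloid cells here, since tumour-gated cells of the brain libraries carried it at 617 and 734 CPM, above the low class. After thinning, 83.8% and 74.7% of high-class cells, 41.9% and 18.8% of low-class cells and 64.8% and 73.9% of tumour-gated cells had a Cd9 UMI, and before thinning 93.3% and 85.6% of high-class and 58.9% and 38.5% of low-class cells did. Trem2 and Cd9 kept their direction and stayed past the threshold in all 19 alternative settings, with adjusted p at most 0.018. Cd9 lies on chromosome 6 from 125460266 to 125494791.

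Cst7, which restrains lysosomal proteases, was 3.04-fold higher in the high class. It was at 330 CPM in the high class of replicate 1 and 106 CPM in replicate 2, against 101 and 34.5 CPM in the low class. The low class of replicate 1 thus lay next to the high class of replicate 2, and the 2 libraries differed by as much as the classes. Within each library the ratio was close, 3.26 and 3.07, and with library as a term the difference passed (log2 1.61, SE 0.18, edgeR adjusted p = 5.6e-18). Without the library term the edgeR adjusted p was 0.39. With 1 library left out, 1 sum per class remained, so neither library alone can test the difference. Cst7 was a gene of a minority of cells: 26.9% and 13.7% of thinned high-class cells held a UMI, against 13.7% and 4.27% of low-class cells and 0.844% of tumour-gated cells in replicate 1 and 0 of 4036 in replicate 2 (exact upper bound 0.0914%). Before thinning the shares were 40.6% and 15.3% in the high class and 24.1% and 7.05% in the low class. Of the 8 proteases and inhibitors on its list, 6 were higher and none lower, Cst7 included, while Ctsc (log2 0.11) and Ctsh (0.24) did not pass. The list had a median log2 difference of 1.67, with 1.69 without brain replicate 1 and 1.65 without replicate 2. The smallest adjusted p values were those of Cst3 (cystatin C, log2 2.91), the asparaginyl protease Lgmn (2.11) and the cathepsins Ctsl (1.73) and Ctss (1.74). Cst7 lies on chromosome 2 from 150570415 to 150578944.

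Axl was higher in the high class by 2.04-fold, with 201 and 217 CPM against 89.3 and 106 CPM. The classes did not overlap (log2 1.03, SE 0.16, edgeR adjusted p = 4.4e-09). Within the libraries the ratio was 2.25 in replicate 1 and 2.04 in replicate 2, each from 1 sum per class, so neither library alone can test it. The call was lost with cells thinned to 2000 UMIs (log2 0.52, edgeR adjusted p = 0.053). After thinning to 2000 UMIs, Axl was found in 26.2% and 22.1% of high-class cells and in 18.4% and 13.7% of low-class cells. At 1000 UMIs the shares were 12.2% and 9.91% against 12.2% and 12.1%, so the classes did not differ there. All 4 genes tested of the Axl list were higher in the high class. These were Axl, its fellow receptor Mertk (log2 3.25) and the ligands of this receptor family, Gas6 (2.18) and Pros1, which encodes protein S (2.25). Axl lies on chromosome 7 from 25757273 to 25788705.

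Spp1, the osteopontin gene, gave a difference that rested on single cells. It was at 733 and 339 CPM in the high class and at 364 and 75.7 CPM in the low class, so the low class of replicate 1 exceeded the high class of replicate 2. The difference was 2.49-fold (log2 1.31, SE 0.16, edgeR adjusted p = 2.2e-14). In the high class of replicate 1, 3 of 480 cells held 1298 of the 1714 Spp1 UMIs, and in replicate 2 3 of 111 cells held 141 of 144. Without the 5 cells with the most Spp1 UMIs in each library and class, the difference was -0.23 (adjusted p = 0.39), and with the split at 0.1% of the UMIs of a cell it was -0.02 (adjusted p = 0.95). Within the libraries the ratio was 2.012 in replicate 1 and 4.485 in replicate 2, each from 1 sum per class. After thinning, Spp1 was found in 10.4% and 4.21% of high-class cells and in 11.9% and 2.56% of low-class cells, with intervals that overlap within each library (before thinning 14.0% and 5.41% against 15.4% and 7.69%). The direction of the Spp1 difference thus rested on 5 or fewer cells per library and class. Of 6 Spp1 receptors tested, Itgb5 was higher (log2 3.05) and Itga4 (-4.13) and Cd44 (-3.34) were lower in the high class. Spp1 lies on chromosome 5 from 104435118 to 104441050.

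Lpl was at 77.4 and 49.5 CPM in the high class and at 30.6 and 10.6 CPM in the low class. The difference was 2.66-fold (log2 1.41, SE 0.24, edgeR adjusted p = 5.7e-08). It lost the call with DESeq2 (adjusted p = 0.062). In edgeR it lost the call with the split at 0.1% of UMIs (adjusted p = 0.31) and in cells with no eGFP or Mycl UMI (0.57). Within the libraries the ratio was 2.53 in replicate 1 and 4.66 in replicate 2, each from 1 sum per class. In replicate 2 the 21 Lpl UMIs of the high class came from 5 cells, and 1 cell held 16 of them. An Lpl UMI was found in 12.7% and 4.50% of high-class cells and in 9.73% and 4.49% of low-class cells. After thinning to 2000 UMIs the shares were 8.23% and 1.05% against 4.33% and 2.56%. Tumour-gated cells carried Lpl at 15.3 and 19.3 CPM in brain, and at 15 and 19.4 CPM in those with no Tyrobp UMI. At the other sites they carried it at 6.21 to 17.1 CPM. Lpl is thus not particular to myeloid cells here, and the low class of replicate 2 lay below the brain tumour-gated levels. Of 8 lipid-handling genes tested, Lpl included, 4 were higher and 3 lower in the high class. The fatty acid carriers Fabp5 (log2 -1.59) and Fabp4 (-3.23) and the lipid droplet protein Plin2 (-1.22) were lower, and the cholesterol exporter Abca1 (2.05) was higher. Lpl lies on chromosome 8 from 68880491 to 68907448.

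Gpnmb went the other way. It was at 32.9 and 4.71 CPM in the high class and at 217 and 19.9 CPM in the low class. The low class was 6.73-fold higher (log2 -2.75 for high against low, SE 0.23, edgeR adjusted p = 7.7e-31), with 6.60-fold in replicate 1. In replicate 2, with 2 UMIs in the high class, the ratio was 4.22 (95% counting interval 0.983 to 38.1). The libraries differed more than the classes, and without the library term the adjusted p was 0.45. It was 0.36 with the sums of the other sites in the fit, and Gpnmb was too low to be tested without brain replicate 1 or after thinning to 2000 UMIs. In the low class of replicate 1, 5 of 370 cells held 302 of the 433 UMIs, and in replicate 2 the 15 UMIs came from 7 cells. Of 6 genes tested in the list of Gpnmb and the factors of its family of regulators, 3 were higher and 2 lower in the high class. Tfe3 (log2 1.41), Mitf (1.94) and the lysosomal membrane protein Lamp1 (0.74) were higher. The 2 lower genes were Gpnmb itself and the regulator Tfec (-1.39). Mitf and Tfec were low, with means of 7.63 and 8.91 CPM over the 4 sums. Gpnmb lies on chromosome 6 from 49036546 to 49070929.

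**Figure D1:**
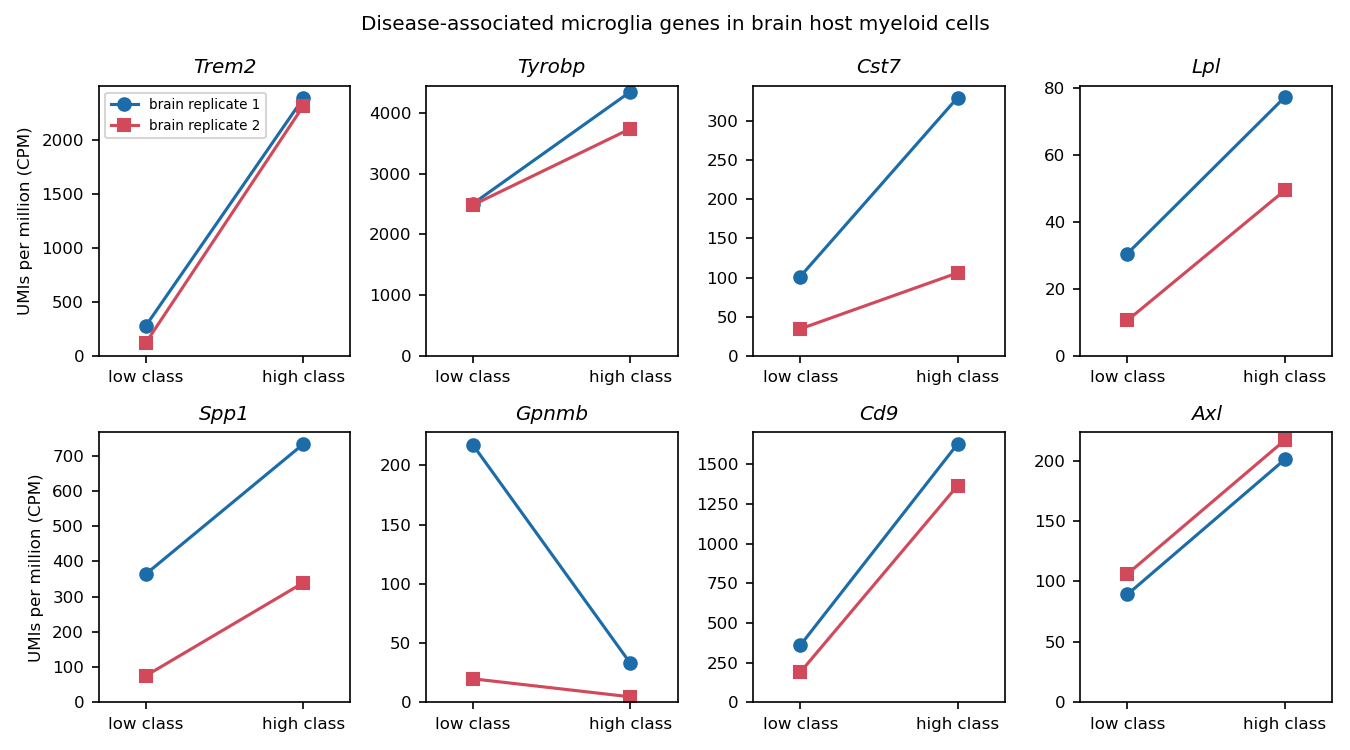
Level of each of the 8 genes (CPM, linear axis from 0) in the summed low-class and high-class host myeloid cells of each brain library, with 1 point per library and lines joining the classes of a library. Trem2, Cd9 and Tyrobp lie high in both libraries in the high class, while Gpnmb is highest in the low class of replicate 1 at 217 CPM.

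Of the 7 members that could be tested, 6 were higher and 1 lower in the high class, read against 17.8% higher and 19.0% lower among all genes. A fit with no library term and with the sums of the other sites counted 4 higher and 0 lower of 7. That fit also called fewer genes in all than the main fit, so its count is not read against these shares. Fits without 1 brain library have this form with 1 sum per class, so only their median log2 differences are given for the lists below. These differ from the main fit by more than the missing library. Of the 27 other genes on a longer list of disease-associated genes, 25 were tested, 14 were higher and 6 lower, with a median log2 difference of 0.67. The lysosomal protease Ctsd (log2 2.64) and the protease inhibitor Timp2 (1.96) were higher, and Lgals3 (galectin-3, -2.53) was lower. Among genes with a mean of at least 100 CPM that did not choose the cells, those furthest apart between the classes were Slc2a5, Serpinf1, Adgrg1, P2ry13 and Olfml3 (higher, log2 7.50, 6.48, 5.01, 4.49 and 4.43) and Ccr7, Il1r2, Ifitm1, Cd209a and S100a11 (lower, log2 -7.75, -6.08, -5.97, -5.91 and -4.84). Without brain replicate 1 the median log2 difference of the longer list was 0.55, and without replicate 2 it was 0.68. In the same order, it was 0.41 and 0.83 for the Trem2 and Tyrobp list and 1.47 and 1.43 for the tetraspanins. The cathepsin list stood at 1.69 and 1.65, and the Axl list at 2.34 and 2.20. For the lipid list the median was -0.31 and 0.18, and for the Gpnmb list 0.69 (4 genes tested) and -0.37 (6 genes tested). No called gene on these lists changed sign with RLE scaling or with library totals.

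**Figure D2:**
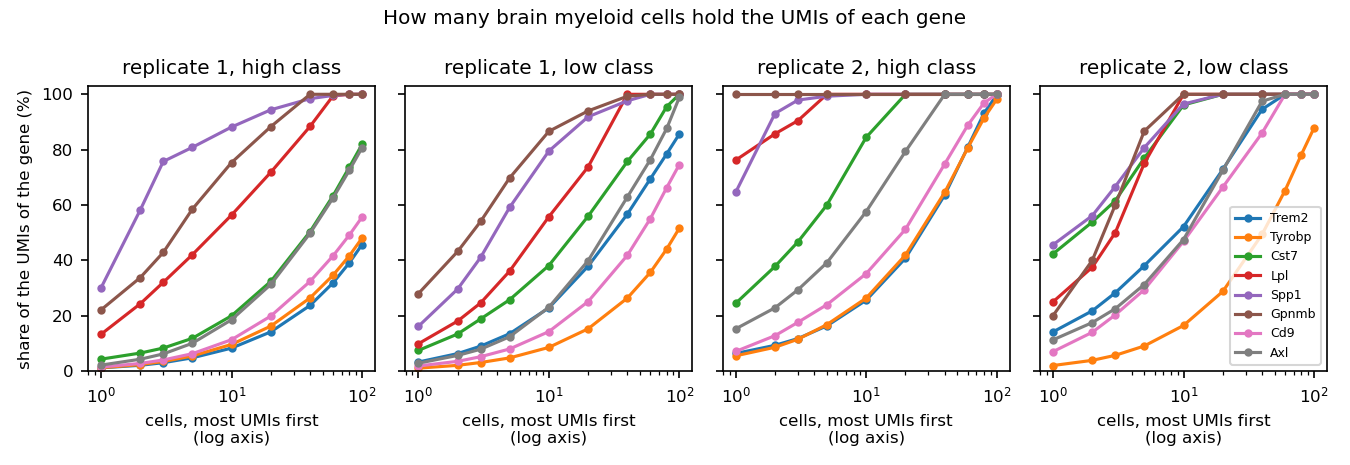
Share of each gene's UMIs (%) held by the top cells of a class, against the number of cells taken in order of their UMIs (log axis), for each brain library and class. Trem2 and Tyrobp rise slowly over many cells, while Spp1 and Gpnmb rise within the first 5 cells, and in the high class of replicate 2 the 2 Gpnmb UMIs came from 1 cell.

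The classes hide a gradient, described here over 5 ranges of the 4-gene UMIs per 10000 UMIs of the cell, which were set after the levels were seen. In brain replicate 1 the cells fell into groups of 232 (none), 146 (above 0 and under 10), 141 (10 to under 30), 132 (30 to under 60) and 199 (60 or more). Trem2 stood at 191, 628, 2247, 2226 and 2992 CPM along these groups, and at 66.2, 500.2, 1238, 2179 and 3088 CPM in replicate 2. It was thus highest in the cells richest in resting microglia genes in both libraries. Cst7 stood at 43.6, 245.9, 758.3, 350 and 43.7 CPM in replicate 1, so that the cells richest in resting genes were back at the level of those with none. In replicate 2 it stood at 20.8, 88.6, 116.7, 301.9 and 18.7 CPM, with the top in the fourth group.

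Axl stood at 272 and 280 CPM at 10 to under 30, and at 73.2 and 88.8 CPM at 60 or more. Spp1 stood at 2086 and 981 CPM at 10 to under 30, and at 43.7 and 4.67 CPM at 60 or more, with its few high cells included. Lpl was highest at 10 to under 30 in replicate 1 (163 CPM), but in replicate 2 that group of 16 cells held none. Gpnmb was not detected at 60 or more in either library. Apoe, a lipid carrier and Trem2 ligand shown after its values were seen, stood at 13968 and 23934 CPM at 10 to under 30 and at 2986 and 3242 CPM at 60 or more. The intermediate group also carried other things: its median depth was the lowest of the 5 in both libraries (3006 and 1667.5 UMIs), and Ms4a7, a macrophage gene, stood at 172 and 1051 CPM in it. Doublets were not removed, and the part of depth, mixed droplets and other macrophages in this pattern was not tested.

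**Figure D3:**
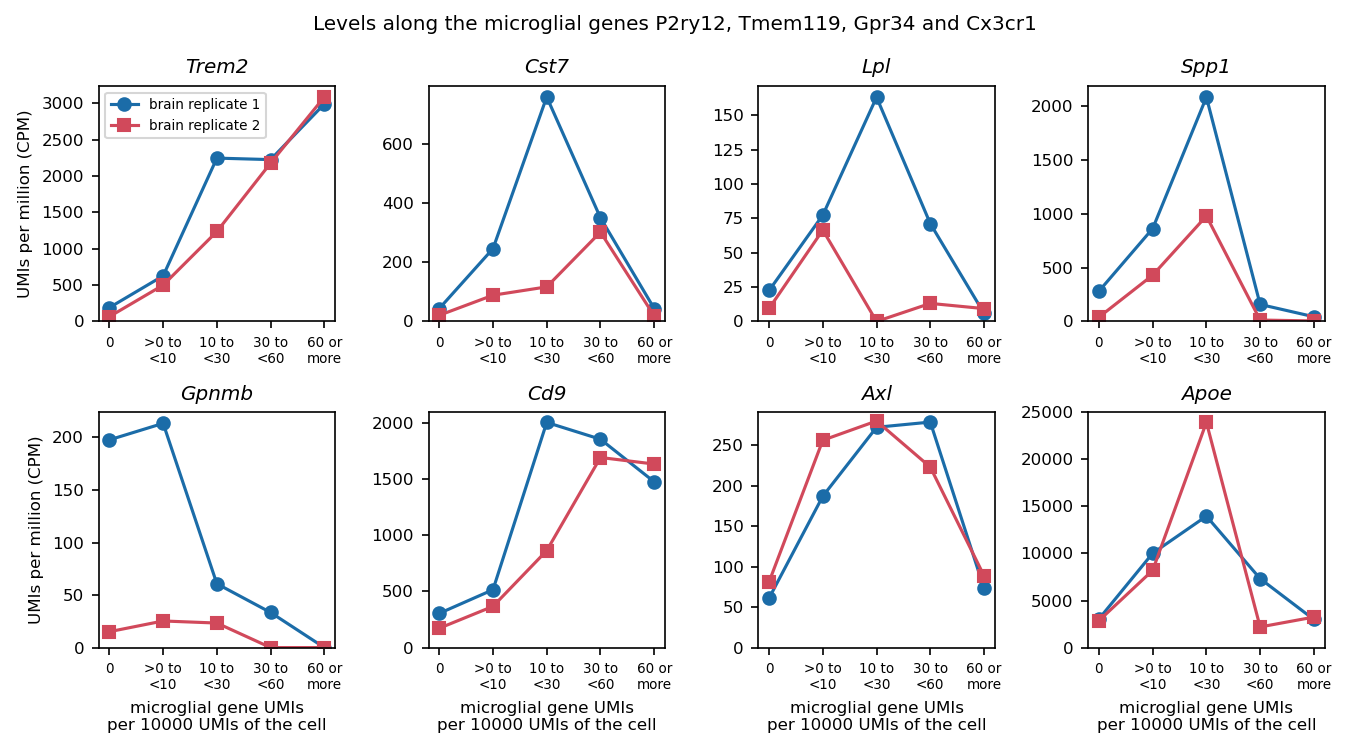
Level of 7 members and Apoe (CPM, linear axis from 0) in brain host myeloid cells grouped by their P2ry12, Tmem119, Gpr34 and Cx3cr1 UMIs per 10000 UMIs, with 1 line per library. Trem2 is highest at 60 or more in both libraries (2992 and 3088 CPM), while Cst7, Spp1, Axl and Apoe are highest below that and lower at 60 or more.

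Per cell, the 7 members other than Tyrobp were mostly found in small numbers. At 2000 UMIs the mean number per cell was 2.55 and 2.08 in the high class and 1.29 and 0.564 in the low class, and in tumour-gated cells 0.740 and 0.783, mostly from Cd9. At least 4 of the 7 were found in 19.1% and 5.26% of high-class cells and in 10.5% and 0.855% of low-class cells. Across high-class cells (n = 413 and 95), which share library and depth, Pearson's r between members was taken on log2(UMIs + 1). It was 0.29 and 0.43 for Trem2 with Cd9, 0.40 and 0.29 for Tyrobp with Cst7, and -0.10 and -0.05 for Trem2 with Cst7. For Trem2 with Axl it was -0.11 and -0.38. In replicate 1 Lpl with Spp1 was highest, followed by Tyrobp with Cst7, while in replicate 2 the pairs of sparse members were highest. These pairs stood at 0.47 and 0.59 for Lpl with Spp1, 0.39 and 0.59 for Spp1 with Gpnmb, and 0.22 and 1.00 for Lpl with Gpnmb. In replicate 2 these rest on 1 cell with Lpl, 1 with Gpnmb and 4 with Spp1 after thinning. The genes whose level across brain host myeloid cells (n = 690 and 212, thinned to 2000 UMIs) was most like the summed members included Ctsd (mean r 0.85), C1qa (0.78), C1qc (0.76) and C1qb (0.76), of 2164 genes ranked. These cells span both classes, which share the gradient above. The sum counts UMIs, so it follows Trem2 and Cd9 more than the sparse members. Before thinning, Trem2 held 6135 and 1073 UMIs in replicates 1 and 2, Cd9 4530 and 723, and Spp1, the next, 2440 and 201.

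Outside the brain only the low class could be compared, in brain replicates 1 and 2 (370 and 156 cells), liver replicates 2 and 3 (50 and 11 cells) and subcutaneous replicate 1 (123 cells). A lower level in a sum of cells cannot tell less RNA per cell from fewer cells of a type. The liver cells carried 7 Kupffer cell genes at 6784 and 7030 CPM, against 167 and 251 CPM in the brain low class, where Clec4f, their defining lectin, was at 0 in both libraries. The sites thus differ in cell type, and its part in the values below was not tested. Of 7814 genes tested in brain against liver, 1.47% passed in either direction (64 higher and 51 lower in brain), and with scaling by library totals the split was 64 higher and 95 lower. That scaling moved the median of all genes from 0.13 to -0.04. Among genes that averaged 100 CPM or more and did not overlap between the libraries of the sites, the 5 with the largest difference each way were Clec4f, Vsig4, Cd5l, Marco and Fcna, lower in brain, and Sparc, Mbp, Ccl8, Ifitm1 and Ly6a, higher in brain. Ifitm1, for example, stood at 1633 and 2350 CPM in brain and 98.5 and 299.7 CPM in liver.

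Cst7 was the only one of the 7 members past the threshold against liver. Its level was 101 and 34.5 CPM in the brain low class, 0 in both liver libraries and 8.57 CPM (6 UMIs) in subcutaneous replicate 1. Cst7 entered the edgeR test through its brain sums. The adjusted p of 0.030 belongs to a log2 estimate of 8.72 (SE 2.09), which is not a measured fold with 0 UMIs in liver. With a floor of 3 UMIs over both liver sums (15.1 CPM), the brain mean was at least 4.51-fold higher. Brain replicates 1 and 2 were at least 6.73-fold and 2.29-fold higher. Taken alone, liver replicate 2 had a floor of 18.5 CPM and liver replicate 3 one of 81.7 CPM. The 0 in liver replicate 3 thus does not show a level below brain replicate 2, and the bounds rest mostly on liver replicate 2. The subcutaneous level lay below the joint liver floor of 15.1 CPM, so a level this low in liver could not be told from 0. Low-class cells with none of the 4-gene UMIs held Cst7 at 43.6 and 20.8 CPM, nearer to that floor. The call was lost in 10 of 20 alternatives, where the adjusted p reached 0.87, including without brain replicate 1 (0.38), without liver replicate 2 (0.61), without liver replicate 3 (0.55) and without subcutaneous replicate 1 (0.54).

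The other members did not pass against liver in the edgeR test. Trem2 was at 279 and 122 CPM in brain, 111 and 136 CPM in liver and 127 CPM in the subcutaneous library (log2 0.99, SE 0.38, adjusted p = 0.27 for brain against liver), and brain replicate 2 lay inside the liver values. Spp1 was at 364 and 75.7 CPM in brain and had 2 UMIs in the liver cells, 12.3 and 0 CPM, with 11.4 CPM in the subcutaneous library (adjusted p = 0.75). In brain replicate 1, 5 of 370 cells held 429 of the 726 Spp1 UMIs. Gpnmb was at 217 and 19.9 CPM in brain, had 2 UMIs in liver and stood at 4.29 CPM in the subcutaneous library (adjusted p = 0.88). In brain replicate 1, 5 of 370 cells held 302 of its 433 UMIs. The results for Spp1 and Gpnmb changed without brain replicate 2. That fit has 1 brain sum and cannot show the spread between brain libraries, so its p-values are not given. Lpl was lower in brain at 30.6 and 10.6 CPM, against 49.2 and 191 CPM in liver and 176 CPM in the subcutaneous library (log2 -1.60, SE 0.52, adjusted p = 0.10). Scaling by library totals or a split at 2 UMIs brought Lpl past the threshold (adjusted p = 0.028 and 0.037). Axl was at 89.3 and 106 CPM in brain and 197 and 245 CPM in liver (log2 -0.93, SE 0.34, adjusted p = 0.21), and at 90.0 CPM in the subcutaneous library. Scaling by library totals also brought Axl past the threshold (adjusted p = 0.046). Cd9 was at 360 and 190 CPM in brain and 246 and 163 CPM in liver (log2 0.50, SE 0.34, adjusted p = 0.74), and at 126 CPM in the subcutaneous library. Tyrobp, given without a test, lay between 2382 and 2943 CPM in these 5 libraries.

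**Figure D4:**
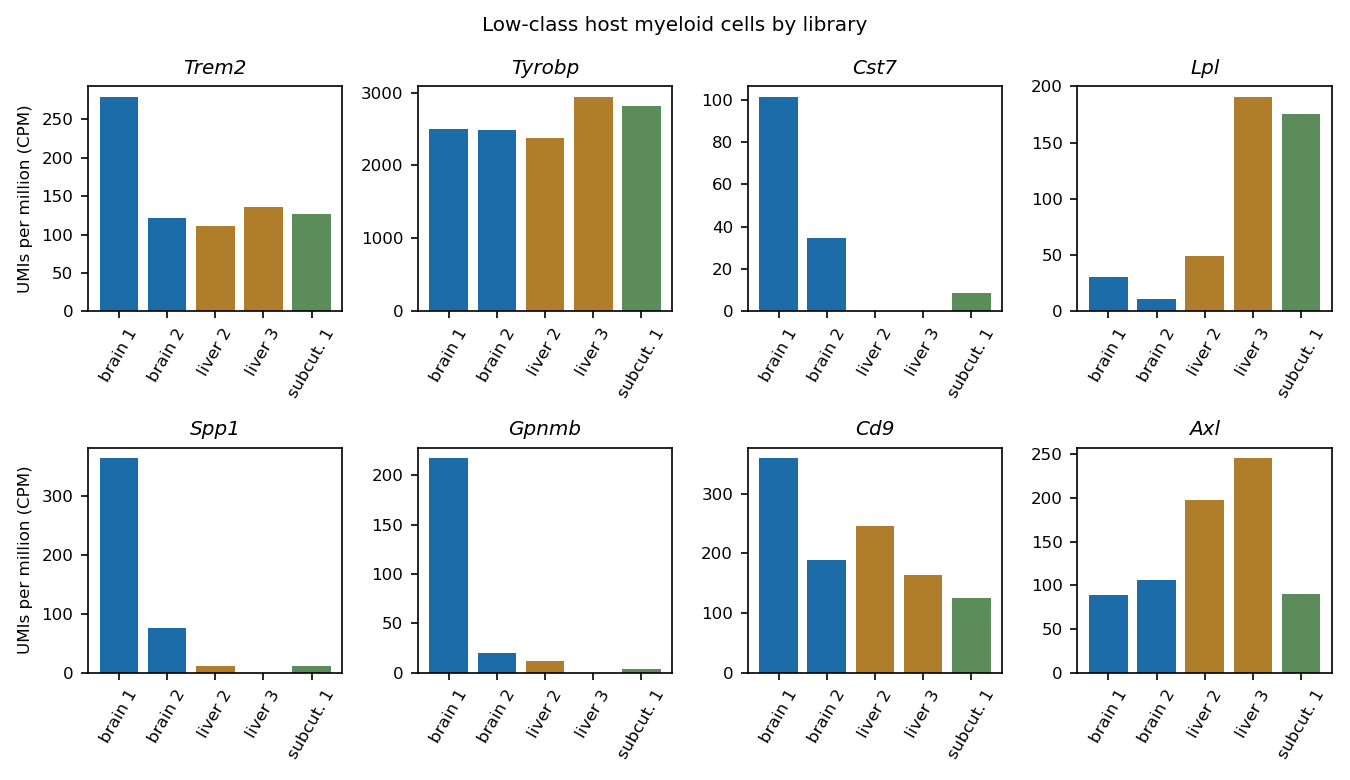
Level of each of the 8 genes (CPM, bars from 0) in low-class host myeloid cells of the 5 libraries with at least 10 such cells, coloured by site. Cst7 is at 0 in both liver libraries, and Lpl is lowest in the brain libraries at 30.6 and 10.6 CPM.

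The subcutaneous site has 1 library with at least 10 low-class cells, so its values have no test. Against its single library, the mean of the brain libraries was higher for Spp1 (219.9 against 11.4 CPM), Gpnmb (118.5 against 4.29 CPM) and Cst7 (67.9 against 8.57 CPM) and lower for Lpl (20.6 against 176 CPM). The Spp1, Gpnmb and Cst7 means rest mostly on brain replicate 1, and replicate 2 alone stood at 75.7, 19.9 and 34.5 CPM. In the low class of replicate 1, 5 cells held 429 of the 726 Spp1 UMIs. Trem2, Cd9 and Axl were at 200.7, 274.7 and 97.7 CPM in the brain mean and at 127, 126 and 90.0 CPM in the subcutaneous library, and Trem2 in brain replicate 2 was at 122 CPM.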

How the data were processed

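Per the submitters' processing notes, reads were processed with Cell Ranger and STAR against mm10, and per the file headers Cell Ranger was version 3.0.0. The authors deposited 10x UMI counts (counts per gene and cell barcode) for 8 libraries, and these counts were used as deposited. A cell needed 500 genes or more and a mitochondrial share of 10% or less, and doublets stayed in. Of 1317 host myeloid cells, 60 had a barcode that also occurs in another library. UMI counts were summed per library and class and tested with edgeR 4.0.16 in R 4.3.3 (TMM scaling, filterByExpr, robust quasi-likelihood test, Benjamini-Hochberg over all genes tested, threshold 0.05), with DESeq2 1.42.0 as an alternative. The test of high against low used library as a term, since both classes of a library come from 1 tumour, and left 1 residual degree of freedom among 4 sums. The test of sites used low-class sums of at least 10 cells in 1 fit, with 2 residual degrees of freedom. Nothing in the labels says that the libraries of a site came from separate mice, so the p-values do not measure a spread between mice. With so few sums, edgeR also pools the spread across all genes tested. A very small p-value thus rests on that pooled spread and not on the spread of the gene itself between libraries. The scripts were tested on simulated data. Detection shares used cells thinned to 2000 UMIs, leaving out shallower ones. In brain replicates 1 and 2 this left out 67 and 16 cells of the high class and 93 and 39 of the low class. Genes other than the members were named by size of difference (the 5 largest each way at a mean of at least 100 CPM) or, per list, by smallest adjusted p (at most 4). Members and lists were chosen with earlier results of these data known. Genes that chose the cells got no test. One gene that the naming rules selected is not reported here.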

Additional observations from a re-analysis of the deposited data

Results flagged for a closer look

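Of the 8 members, 5 were at a higher level in tumour-gated cells of both brain libraries than in those of every liver and subcutaneous library, in cells that the comparisons do not use. Lpl, Spp1 and Cd9 were not. The lower of both brain levels was 2.92 CPM for Trem2, 10.3 CPM for Tyrobp, 0.207 CPM for Cst7, 0.129 CPM for Gpnmb and 0.568 CPM for Axl. For Axl (22 UMIs, 95% counting interval 0.356 to 0.861 CPM) and Gpnmb (5 UMIs, 0.0419 to 0.301 CPM) this lower level overlapped subcutaneous replicate 1, at 0.552 and 0.0959 CPM, within counting error. In brain replicate 1 the levels were 24.9 CPM for Trem2 and 83.6 CPM for Tyrobp, and the highest level at the other sites was 0.125 CPM for Trem2 and 4.32 CPM for Tyrobp. In tumour-gated cells with no Tyrobp UMI, Trem2 stood at 11.6 and 0.928 CPM, Gpnmb at 0.698 and 0 CPM, and Axl at 0.628 and 0.410 CPM, against up to 0.418 CPM for Axl at the other sites. Cst7 stood at 1.81 and 0.0819 CPM in these cells, against up to 0.0649 CPM at the other sites, so brain replicate 2 lay close to them. The origin of these UMIs was not tested.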

How the results depend on the processing

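Of the results named by gene, the call for high against low lost significance 18 times and reversed 2 times in 131 gene-level alternatives; Trem2 and Cd9 did neither. The 3096 genes called between the classes became 1017 with DESeq2, 1822 with the sums of the other sites in the fit, 1884 in cells with no eGFP or Mycl UMI and 1792 after thinning to 2000 UMIs. Leaving out 1 brain library gave 468 to 806, in a fit that takes the lone sums to vary like the sums of the other sites. Spp1 reversed to -0.0194 with the split at 0.1% of UMIs and to -0.234 without its 5 top cells per library and class, an alternative chosen after seeing the data.

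The 115 genes called between brain and liver became 24 with DESeq2, 42 without the robust fit, 61 with the split at 5 UMIs, 266 over all host myeloid cells and 30 with only the 2 sites compared. Leaving out 1 library gave 6 to 76. Cd9 reversed to -0.0749 without brain replicate 1 and reached 1.27 without liver replicate 2. The liver libraries hold 50 and 11 cells, which limits this comparison. Against the subcutaneous library, with no test, 13 of 160 values moved by more than the spread between the brain libraries; without brain replicate 1 the log2 ratio of Spp1 went from 4.24 to 2.62, of Cst7 from 3.00 to 1.90 and of Lpl from -2.96 to -4.09. Alternatives that left 1 liver library with enough cells (no eGFP or Mycl UMI, eGFP and Mycl under 0.1%, thinning, at least 25 cells) gave no value.

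For the library term within brain, the fit with no replicate block called 2173 genes, and Cst7, Spp1 and Gpnmb lost their calls. Between sites the samples share only a number, and the replicate block had no residual degree of freedom at 10 cells. With at least 5 cells, chosen after seeing the data, the block called 75 genes. The mean number of members per high-class cell was 2.32 and became 2.72 without thinning and 1.87 at 1000 UMIs; in the low class 0.925 became 1.56 without thinning. The high-class share stayed within 1 SD of its mean of 49.0% in all 8 alternatives.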
